A study of Mus musculus with 32 samples.

Results

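The chondroitin sulfate proteoglycans and tenascins are matrix proteins of the spinal cord, and 10 genes of the set were followed here, chosen by symbol: Acan, Bcan, Ncan, Vcan, Tnc, Tnr, Hapln1, Xylt1, Chst11 and Ptprs. The count table held 23420 genes, and all 10 were present and passed the filter on low counts that left 16314 genes for testing. Bulk RNA-seq was run on spinal cord segments around the lesion from C57BL/6J mice aged 8 to 12 weeks, and the series concerns Gsx1 and recovery of locomotion. The sham groups were labelled Sham and had 3 libraries each at 3 and 35 days. The injured control groups (SCI+Ctrl) had 3, 3 and 4 libraries at 3, 14 and 35 days, and so had the Gsx1 groups (SCI+Gsx1). The Nkx6.1 groups (SCI+Nkx6.1) had 3 libraries each at 3 and 35 days. Gsx1 and Nkx6.1 are both homeodomain proteins that pattern progenitors of the embryonic cord. The labels name no control treatment for sham cords, so injury and the control treatment cannot be told apart. The tissue is described as injured and injected, but the sources used here do not give the kind of injury, the vector or the sex of the mice.

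As background, the lecticans (aggrecan, brevican, neurocan and versican) are core proteins that carry chondroitin sulfate chains and bind hyaluronan. Link proteins hold them on hyaluronan, and tenascins cross-link them, which on some neurons builds the dense coat called the perineuronal net. After injury of the central nervous system this matrix is known as a barrier to growing axons, read by the receptor phosphatase that Ptprs encodes.

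Total counts per library ranged from 10823632 to 19512107. Levels are CPM, counts scaled to library size with TMM factors, and n is the number of libraries in a group. Xist was above 100 CPM in 7 of 32 libraries, unevenly over the groups, and 2 of these also had Ddx3y above 10 CPM. These 2 were replicate 1 of the 3-day sham group and replicate 4 of the 35-day injured controls. High in Xist alone were sham replicate 2 at 3 days and sham replicate 3 at 35 days. The same held for injured control replicate 1 at 3 days and at 35 days, and Nkx6.1 replicate 2 at 35 days. No Gsx1 library was high in Xist. At 35 days, injured control replicates 1 and 4 lay opposite to replicates 2 and 3 in the balance of long and short genes. Gsx1 replicate 3 lay opposite to the other Gsx1 libraries of that day. These 3 libraries were low in Tnr. Where leaving out these 3 libraries, or those high in Xist, changed a call, this is stated beside the result or among the alternatives at the end. For some genes only the count of calls is given, without the value. Nothing in the labels states that each library is a separate animal, and p-values therefore measure only how these samples scatter, which may be technical.

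Per kilobase of exon, the sham cords at 3 days ranked Bcan first (mean 92.5 ± 13.8 CPM per kb, SD, n = 3), followed by Ptprs (28.5), Ncan (14.2) and Chst11 (9.34). Hapln1 (5.13), Tnr (4.97) and Acan (4.61) came next, and their ranges over libraries overlapped from each to the next. Vcan stood at 3.13 CPM per kb, and Xylt1 (1.51) and Tnc (1.47) were lowest, with overlapping ranges. In injured controls at 3 days the order was Bcan (51.1), Ncan (33.1), Ptprs (24.1), Tnc (16.7), Chst11 (14.3), Vcan (7.75), Tnr (4.88), Acan (2.74), Xylt1 (1.69) and Hapln1 (1.49). Tnc moved from the last place to the fourth, and its range of 11.1 to 20.5 overlapped that of Chst11, as the ranges of Xylt1 and Hapln1 overlapped. Bcan stayed the most abundant per length in all 4 groups of sham and injured control cords at 3 and 35 days.

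**Figure D1:**
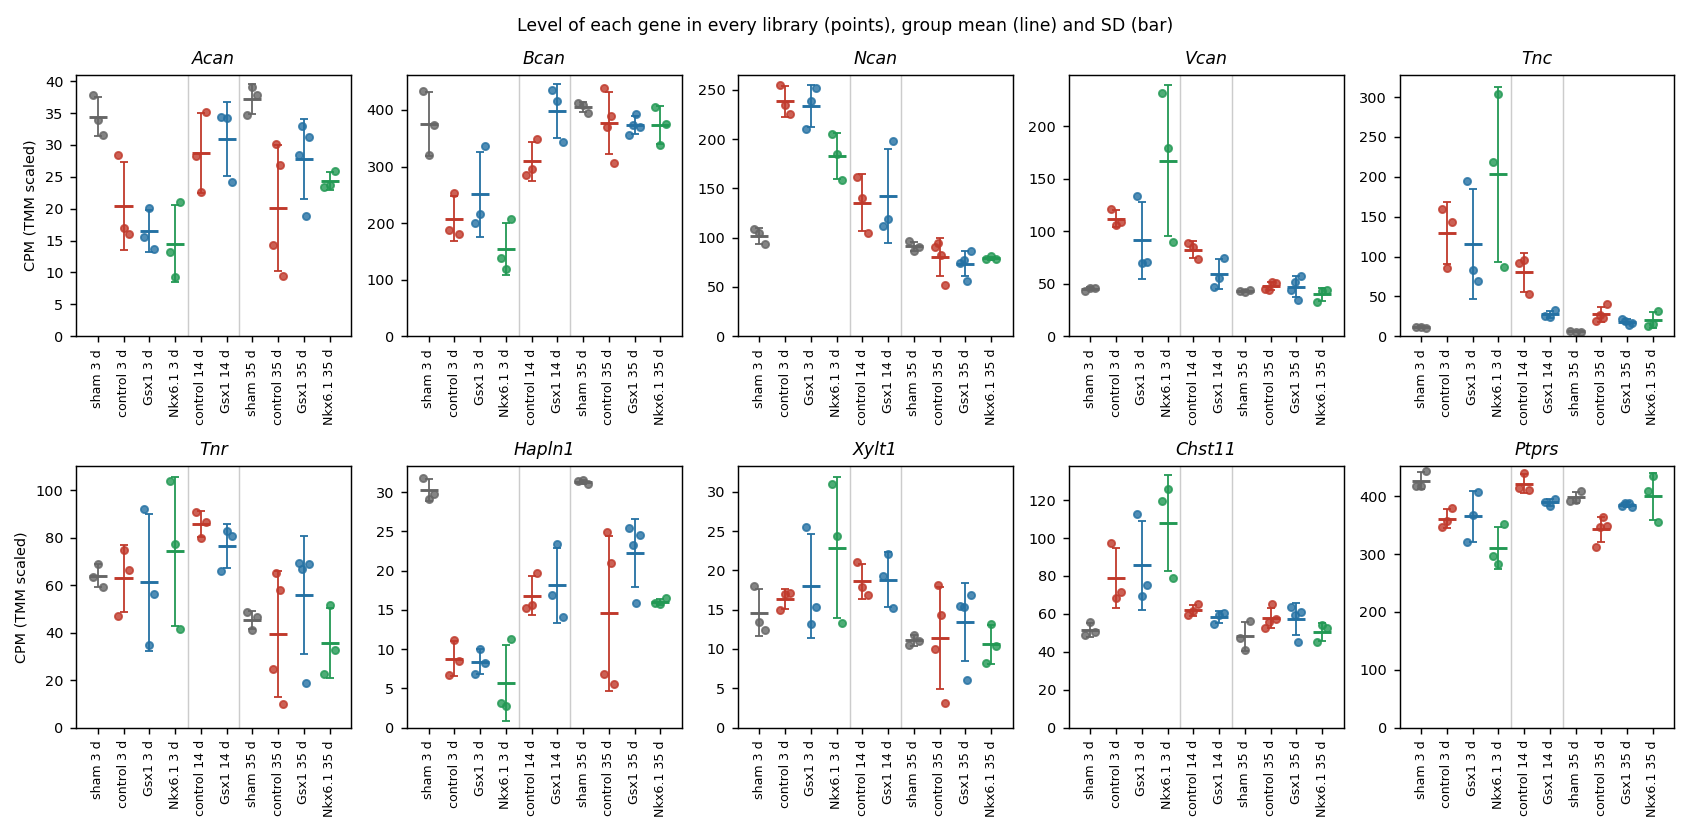
Level of each of the 10 genes (y axis, CPM, linear from 0) in every library (points) of the 10 groups (x axis), with the group mean (horizontal line) and SD (bar). At 3 days Tnc, Ncan, Vcan and Chst11 were higher in every injured control than in every sham library, and Bcan, Hapln1, Acan and Ptprs were lower. How often groups lay apart over all genes was not counted. Tnr and Xylt1 spread widely within several groups.

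The comparison of injured control with sham cords asks how the matrix genes differ after injury. At 3 days 7 of the 10 genes changed: Tnc, Vcan, Ncan and Chst11 rose, and Hapln1, Bcan and Ptprs fell. The largest of these was an 11.3-fold rise of Tnc. Among all genes tested, 35.5% were called at an adjusted p under 0.05 (edgeR, Benjamini-Hochberg over all 16314 genes), 19.5% higher and 16% lower. The 4 genes called higher and 3 called lower are read against those shares. The median log2 fold change of the 10 genes was 0.07, against 0.01 over all genes. With only the libraries low in Xist, which leaves sham replicate 3 and injured control replicates 2 and 3, 3 of the 10 were called, namely Tnc, Ncan and Hapln1. In that fit Vcan (1.24), Bcan (-0.75), Chst11 (0.50) and Ptprs (-0.25) kept their direction without a call (adjusted p 0.0747 to 0.254), and 1770 genes were called in all.

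Tnc encodes tenascin-C, a matrix glycoprotein that is low in the resting cord, on chromosome 4 at 63959785 to 64047015 (GRCm38, minus strand). Its sham libraries at 3 days read 11.5, 12.2 and 10.6 CPM, and the injured controls read 159, 85.8 and 143 CPM. The groups did not overlap, and the injured controls also varied widely among themselves. The log2 fold change was 3.50 ± 0.43 (SE), with an adjusted p of 1.66e-06. At 35 days sham libraries read 7.12, 5.51 and 5.74 CPM, and the injured controls read 19.3, 26.0, 22.9 and 40.8 CPM, again without overlap. Tnc was still higher, by 2.15 ± 0.42 on the log2 scale (4.45-fold, adjusted p = 4.32e-04). The annotated transcript 8030451A03Rik shares 176 of its exonic bases. Tnc was called at both times under every alternative run, with a highest adjusted p of 0.0423 at 35 days.

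Vcan (chromosome 13, 89655312 to 89742509, minus strand) encodes versican, a large lectican made by progenitor and mesenchymal cells. At 3 days it read 43.5, 45.9 and 46.2 CPM in sham cords and 121, 106 and 109 CPM in injured controls, a rise of 1.31 ± 0.25 on the log2 scale (adjusted p = 3.03e-04). At 35 days sham (42.1 to 44.1 CPM) and injured control (43.9 to 51.8 CPM) overlapped, and the log2 difference was 0.15 with a 95% interval of -0.34 to 0.63.

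Ncan (chromosome 8, 70093085 to 70120873, minus strand) encodes neurocan, a lectican that astrocytes make. Sham libraries at 3 days read 109, 104.5 and 93.2 CPM, and injured controls read 255, 235 and 225 CPM, with no overlap. The rise was 1.22 ± 0.20 on the log2 scale (2.33-fold, adjusted p = 4.84e-05), and it kept its call under every alternative run. At 35 days injured controls read 90.3, 94.9, 82.8 and 52.0 CPM beside 96.2, 86.5 and 90.7 CPM in sham, and the log2 difference was -0.19 (interval -0.57 to 0.19). Tnc, Vcan and Ncan thus all rose at 3 days, and of the 3 only Tnc was called at 35 days.

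Because these 3 core matrix genes rose together at 3 days, the bases before their transcription starts are shown, 5′ to 3′ on the gene's strand, from RefSeq sequence on build GRCm38.p6. The promoter table held 9 of the 10 genes. Windows of 250 bases were taken, and bases inside the GENCODE gene were left out. Capitals mark matches, on either strand, to 5 short motifs of factors known from injury or of the core promoter. The AP-1 motif was searched as TGANTCA, and 6.75% of the windows of 32817 promoters hold it. The STAT motif was searched as TTCNNNGAA, held by 7.01%. The SMAD motif was searched as CAGAC, held by 42.2%. The core of the SOX motif was searched as ACAAT, held by 27.7%. The TATA box was searched as TATAAA, held by 12.4%.
Tnc, chr4:64047016-64047265, minus strand: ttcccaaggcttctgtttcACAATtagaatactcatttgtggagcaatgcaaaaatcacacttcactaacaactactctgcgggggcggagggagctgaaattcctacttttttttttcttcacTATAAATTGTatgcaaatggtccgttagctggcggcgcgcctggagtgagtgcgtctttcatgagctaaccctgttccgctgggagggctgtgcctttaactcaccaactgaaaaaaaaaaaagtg
Ncan, chr8:70120874-70121094, minus strand: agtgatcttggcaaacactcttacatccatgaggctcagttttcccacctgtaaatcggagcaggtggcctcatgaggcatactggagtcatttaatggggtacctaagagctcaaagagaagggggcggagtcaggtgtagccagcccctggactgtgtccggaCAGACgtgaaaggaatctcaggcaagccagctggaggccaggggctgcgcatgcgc
Vcan, chr13:89742513-89742762, minus strand: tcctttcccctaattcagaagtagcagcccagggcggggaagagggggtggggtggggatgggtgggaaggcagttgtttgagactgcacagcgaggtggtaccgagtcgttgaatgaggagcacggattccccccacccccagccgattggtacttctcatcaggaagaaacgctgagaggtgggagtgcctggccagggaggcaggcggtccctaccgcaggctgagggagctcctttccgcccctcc
The Tnc window held 2 SOX matches and 1 TATA box match, which shares a base with the SOX match read on the other strand. The Ncan window held 1 SMAD match, and the Vcan window held none of the 5 motifs. A match describes the letters and shows no binding.

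Chst11, which encodes a sulfotransferase that adds sulfate to chondroitin chains, read 48.7, 55.9 and 50.2 CPM in sham cords at 3 days and 97.4, 68.5 and 71.4 CPM in injured controls. It rose by 0.62 ± 0.17 on the log2 scale (adjusted p = 0.00803). Without injured control replicate 1, its highest library, the value was 0.45 and the call was lost (adjusted p = 0.0740, range over alternatives 0.00341 to 0.212). At 35 days the log2 difference was 0.26 (interval -0.08 to 0.60) and the groups overlapped.

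Hapln1 encodes the link protein that fixes lecticans to hyaluronan. Its sham libraries at 3 days read 31.8, 29.2 and 29.8 CPM, and the injured controls read 6.64, 11.1 and 8.54 CPM. It fell by 1.78 on the log2 scale (SE 0.43, 3.44-fold lower, adjusted p = 0.00261), the largest fall of the 10, and was called under every alternative run. Bcan, the gene of brevican, an abundant lectican of the adult cord, read 433, 321 and 373 CPM in sham and 187, 253 and 182 CPM in injured controls, a fall of 0.86 (SE 0.19, adjusted p = 0.0011). Acan, the gene of aggrecan and a main component of perineuronal nets, read 37.8, 34.0 and 31.6 CPM in sham and 28.4, 17.0 and 16.0 CPM in injured controls. These groups did not overlap either, but the log2 difference of -0.75 (SE 0.32) was not called (adjusted p = 0.064). Without injured control replicate 1 it was -1.05 and was called (adjusted p = 0.0375, range over alternatives 0.0198 to 0.232).

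Ptprs, the receptor gene, read 419, 419 and 444 CPM in sham at 3 days and 347, 357 and 380.3 CPM in injured controls. The fall was 0.24 on the log2 scale (SE 0.09), or 1.18-fold, with an adjusted p of 0.0463. That call was lost when any 1 of the 6 sham and injured control libraries at 3 days was left out (adjusted p 0.0717 to 0.195) and with RLE scaling (0.0574), within a range over alternatives of 0.0269 to 0.254. Tnr, the gene of tenascin-R, a tenascin of oligodendrocytes and perineuronal nets, read 63.6, 68.9 and 59.3 CPM in sham and 47.2, 75.0 and 66.2 CPM in injured controls. Its log2 difference was -0.02 with an interval of -0.99 to 0.94, and the injured controls spread to both sides of sham. An annotated antisense gene, Gm38039, shares 443 exonic bases with Tnr, and whether the authors counted by strand is not stated, so reads from the 2 genes cannot be told apart there. Xylt1, whose enzyme attaches the xylose that starts each chain, differed by 0.16 (interval -0.65 to 0.97).

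At 35 days 3 of the 10 genes were called in injured controls against sham: Tnc rose (above), and Acan and Hapln1 fell. The background was 36.8% of all genes, 21.3% higher and 15.5% lower, so the share of these genes called was close to that of all genes. With only the libraries low in Xist, Tnc alone was called. The share of all genes called in that fit is not given here. The lost calls therefore do not set Acan and Hapln1 apart from other genes. Sham libraries read 34.7, 39.1 and 37.9 CPM for Acan, and injured controls read 14.3, 30.1, 26.8 and 9.44 CPM, a fall of 0.88 on the log2 scale (SE 0.29, adjusted p = 0.0208). For Hapln1, sham libraries read 31.4, 31.5 and 31.1 CPM and injured controls read 6.77, 25.0, 20.9 and 5.50 CPM, a fall of 1.10 (SE 0.39, adjusted p = 0.0277). In both genes all injured controls lay below all sham libraries, and replicates 1 and 4 were far lower than replicates 2 and 3. Without replicate 1 the values were -0.74 for Acan and -0.86 for Hapln1, and without replicate 4 they were -0.64 and -0.83. Neither gene was called in these fits (adjusted p 0.0711 to 0.105), nor without sham replicate 2 or sham replicate 3, where the values stayed at -0.84 or below. Hapln1 also lost its call without sham replicate 1. Without injured control replicates 1 and 4 and Gsx1 replicate 3 together, Acan differed by -0.37 and Hapln1 by -0.43. These libraries were chosen after seeing the data. They were low in Tnr and in long against short genes, while Nkx6.1 replicate 1, also low in Tnr (22.6 CPM), was kept. Injured control replicates 1 and 4 were also high in Xist (407 and 675 CPM), unlike replicates 2 and 3 (0.34 and 2.51 CPM). Within that group, low Acan and Hapln1 thus went with high Xist. Ptprs differed by -0.22 without overlap of the groups and was not called (adjusted p = 0.0541). It was called without injured control replicate 2 (adjusted p = 0.0449) or replicate 3 (0.0320), within a range over alternatives of 0.0221 to 0.527. Bcan differed by -0.11 (interval -0.46 to 0.25), Tnr by -0.20 (interval -1.12 to 0.71) and Xylt1 by 0.04 (interval -0.73 to 0.82).

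Markers of several cell types differed between the same groups. In a bulk sample, fewer cells of a type and less RNA per cell cannot be told apart. The summed level of 8 neuron markers was 9663 to 10451 CPM in sham cords at 3 days and 4342 to 6092 CPM in injured controls. At 35 days it was 11188 to 11542 CPM in sham, and 7065, 7944, 8141 and 4091 CPM in injured control replicates 1 to 4, which is lowest in the 2 libraries lowest for Acan and Hapln1. The sum of 8 astrocyte markers was 7645 to 8796 CPM in sham at 3 days and 11399 to 13522.5 CPM in injured controls. Over the same groups, 8 fibroblast markers summed to 183 to 385 CPM and 547 to 1949.7 CPM, and the 7 of 8 macrophage and microglia markers in the table summed to 130.2 to 169 CPM and 926 to 1719 CPM. In these 4 lists 0 markers had no count in any group. The part of these cell types in the results was not tested.

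The Gsx1 and Nkx6.1 cords were set against the same sham libraries, so these comparisons share their reference with the one above and are given side by side. At 3 days 7 of the 10 genes were called for Gsx1 (background 37.7%) and 8 for Nkx6.1 (background 54.3%). Tnc differed from sham by 3.50 in injured control, 3.34 in Gsx1 and 4.15 in Nkx6.1 cords on the log2 scale. Vcan differed by 1.31, 1.02 and 1.88 in that order, Ncan by 1.22, 1.19 and 0.84, and Chst11 by 0.62, 0.73 and 1.07. Hapln1 differed by -1.78, -1.85 and -2.38, Bcan by -0.86, -0.58 and -1.28, and Acan by -0.75, -1.06 and -1.24, of which only Acan in injured controls was not called. In Gsx1 cords, Acan lost its call without Gsx1 replicate 1 or 3 (adjusted p 0.0518 and 0.0513), and Bcan lost it without sham replicate 1, Gsx1 replicate 1 or Gsx1 replicate 2, with values of -0.47, -0.43 and -0.47. In Gsx1 cords, with only the libraries low in Xist, Acan (-0.92), Bcan (-0.55) and Vcan (1.01) kept their direction and were not called. That fit leaves sham replicate 3 alone as the reference. The share of all genes called in it is not given, so the lost calls do not set these genes apart. Ptprs was called in Nkx6.1 cords (-0.46, adjusted p = 2.08e-04).

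At 35 days Tnc alone was called in both treated groups, with 9.8% of all genes called for Gsx1 and 7.2% for Nkx6.1. It read 21.6, 19.7, 14.5 and 17.0 CPM in Gsx1 cords and 13.1, 15.5 and 32.0 CPM in Nkx6.1 cords, all above the 5.51 to 7.12 CPM of sham. The log2 values were 1.57 ± 0.42 (adjusted p = 0.0165) and 1.72 ± 0.44 (adjusted p = 0.0146). Without sham replicate 2 or 3 both calls were lost (adjusted p 0.0661 to 0.0766), with log2 values of 1.50 and 1.53 for Gsx1 and 1.65 and 1.68 for Nkx6.1. Without Nkx6.1 replicate 3 the value was 1.22 (adjusted p = 0.196, range over alternatives 4.48e-04 to 0.196). With only the libraries low in Xist the values were 1.53 and 1.84 and neither was called (adjusted p 0.0867 and 0.0651). Acan, Hapln1 and Ncan lay below every sham library in both treated groups, as did Bcan and Ptprs in Gsx1 cords, and none of these was called. How often groups lay apart over all genes was not counted, so this is not read as particular to them. Acan differed by -0.42 in Gsx1 and -0.61 in Nkx6.1 cords, Hapln1 by -0.49 and -0.97, and Ncan by -0.31 and -0.20. In Gsx1 cords Bcan differed by -0.12 and Ptprs by -0.05.

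**Figure D2:**
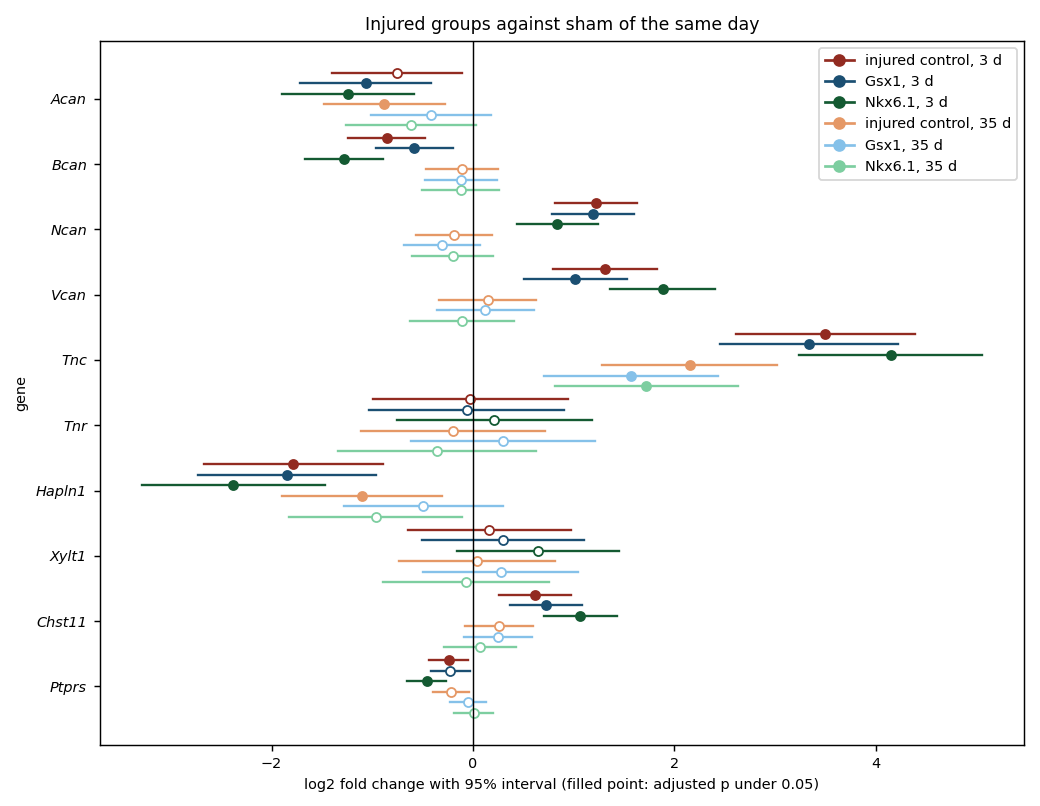
Log2 fold change (x axis) of each gene (y axis) in injured control, Gsx1 and Nkx6.1 cords against sham cords of the same day, with 95% intervals as bars. Filled points mark an adjusted p under 0.05. At 35 days (light colours) Tnc lay above 0 in all 3 groups, and Vcan, Ncan, Bcan and Chst11 had intervals that included 0.

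The direct comparison of treated with injured control cords asks whether Gsx1 or Nkx6.1 altered these genes. None of the 10 was called in any of the 5 comparisons with edgeR. For Gsx1, 0, 1 and 1 of them had an unadjusted p under 0.05 at 3, 14 and 35 days. For Nkx6.1 it was 4 at 3 days and 1 at 35 days. The number of all genes under that limit is not given for Nkx6.1 at 3 days. The 4 are therefore not read as particular to these genes. At 3 days Gsx1 cords had 0 of 16314 genes called (background 0%), with 338 genes and 0 of the 10 at an unadjusted p under 0.05, and DESeq2 also called 0 genes. Intervals for the 10 genes in this comparison were widest for Tnr, at -0.04 ± 0.47 (SE) on the log2 scale, and narrowest for Ptprs, from -0.18 to 0.21.

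Tnc at 14 days was the matrix gene with the smallest p between Gsx1 and injured control cords. Injured controls read 92.4, 95.8 and 52.4 CPM, and Gsx1 cords read 25.2, 24.4 and 32.8 CPM, with no overlap. The log2 difference was -1.55 ± 0.40 (SE), 2.92-fold lower, with an adjusted p of 0.268 in edgeR, where 0% of genes were called and 960 had an unadjusted p under 0.05. DESeq2 called 32 genes, Tnc among them (adjusted p = 0.0326, range over alternatives 0.0326 to 1). Over the same libraries the sum of 8 fibroblast markers was 3519.6, 3084 and 2784.5 CPM in injured controls and 475, 484 and 972 CPM in Gsx1 cords. Schwann cell markers were also lower in Gsx1 cords without overlap (96.4 to 459.5 against 622 to 1315 CPM). Markers of oligodendrocytes (25577 to 29441 against 18728 to 22316 CPM), astrocytes (12843 to 13619 against 10303 to 12087 CPM) and cartilage and bone (119 to 162 against 91.7 to 108 CPM) were higher without overlap. The part of these cell types in the Tnc difference was not tested. The difference in the Gsx1 effect between 14 and 3 days was -1.38 ± 0.55 and was not called (0% of genes called, 309 at an unadjusted p under 0.05, 2 by DESeq2 without Tnc). At 14 days Vcan differed by -0.48 (interval -0.99 to 0.02) and Bcan by 0.36 (interval -0.02 to 0.74).

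At 35 days Gsx1 against injured control again had 0% of genes called (3077 at an unadjusted p under 0.05, 0 by DESeq2). Ptprs was higher in every Gsx1 library (382 to 389 CPM) than in every injured control (311 to 363 CPM), with a log2 difference of 0.17 that was not called (adjusted p = 0.260). Tnc differed by -0.58 (interval -1.30 to 0.13), Acan by 0.46, Hapln1 by 0.61 and Tnr by 0.50. With only the libraries low in Xist, which leaves out injured control replicates 1 and 4, the last 3 were -0.04, -0.05 and -0.15. For the Gsx1 effect at 35 against 3 days, 0% of genes were called (1614 at an unadjusted p under 0.05, 0 by DESeq2).

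Nkx6.1 against injured control had 0.337% of genes called at 3 days and none of the 10, also with DESeq2, which called 451 genes. Nkx6.1 libraries read 232, 179.8 and 89.7 CPM for Vcan, beside 106 to 121 CPM in injured controls, and 219, 304 and 86.6 CPM for Tnc, beside 85.8 to 159 CPM. For Hapln1 they read 3.16, 2.69 and 11.3 CPM, beside 6.64 to 11.1 CPM. In all 3 genes Nkx6.1 replicates 1 and 2 lay beyond the injured controls on 1 side, while replicate 3 lay within their range for Tnc and just beyond them on the other side for Vcan and Hapln1. Vcan differed by 0.57 ± 0.24, Chst11 by 0.45 ± 0.17, Bcan by -0.43 ± 0.19 and Ptprs by -0.22 ± 0.09, with adjusted p from 0.179 to 0.230. Without Nkx6.1 replicate 3, 2501 of 16314 genes were called, among them 5 of the 10: Bcan, Chst11, Hapln1, Ptprs and Vcan. The sum of 8 neuron markers was 2708, 2895 and 6000.3 CPM in Nkx6.1 replicates 1 to 3 and 4342 to 6092 CPM in injured controls. The 7 macrophage and microglia markers summed to 3632, 3939 and 2587 CPM in Nkx6.1 cords, all above the 926 to 1719 CPM of injured controls, and the 8 astrocyte markers to 8126 to 10856.5 CPM, all below the 11399 to 13522.5 CPM of injured controls. Schwann cell markers were also lower without overlap (63.6 to 148 against 190.4 to 1091 CPM) and ependymal markers higher (59.6 to 65.4 against 52.2 to 59.2 CPM). The part of these cell types in the result was not tested. At 35 days 0% of genes were called (2005 at an unadjusted p under 0.05, 0 by DESeq2), with Ptprs at 0.22 ± 0.09 (adjusted p = 0.348) and Tnc at -0.43 (interval -1.21 to 0.34). For the Nkx6.1 effect at 35 against 3 days, 2.31% of genes were called and none of the 10. Ptprs had the smallest p of the 10 there (0.44 ± 0.13, adjusted p = 0.0575), and DESeq2 called it (adjusted p = 0.0119, range over alternatives 0.00372 to 0.414). Chst11 was at -0.64 and Vcan at -0.83, and without Nkx6.1 replicate 3 at 3 days 6 of the 10 were called among 3570 of 16314 genes. Ptprs alone was called in that comparison without injured control replicate 1 at 3 days, injured control replicate 2 or 3 at 35 days, or Nkx6.1 replicate 3 at 35 days, fits that called 672 to 2179 genes.

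Between Gsx1 and Nkx6.1 cords at 3 days 0.0797% of genes were called and none of the 10. Bcan read 200.4, 215 and 337 CPM in Gsx1 and 138, 118 and 207 CPM in Nkx6.1 cords, which overlapped, and its log2 difference was 0.70 ± 0.19 (adjusted p = 0.161). DESeq2 called Bcan (adjusted p = 0.0430, range over alternatives 0.00498 to 0.920). Vcan differed by -0.87 and Tnc by -0.81. Without Gsx1 replicate 1, Bcan, Tnc and Vcan were called among 563 of 16314 genes, and without Nkx6.1 replicate 3, 5 of the 10 were called among 1860 genes. At 35 days 0% of genes were called (393 at an unadjusted p under 0.05, 0 by DESeq2).

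**Figure D3:**
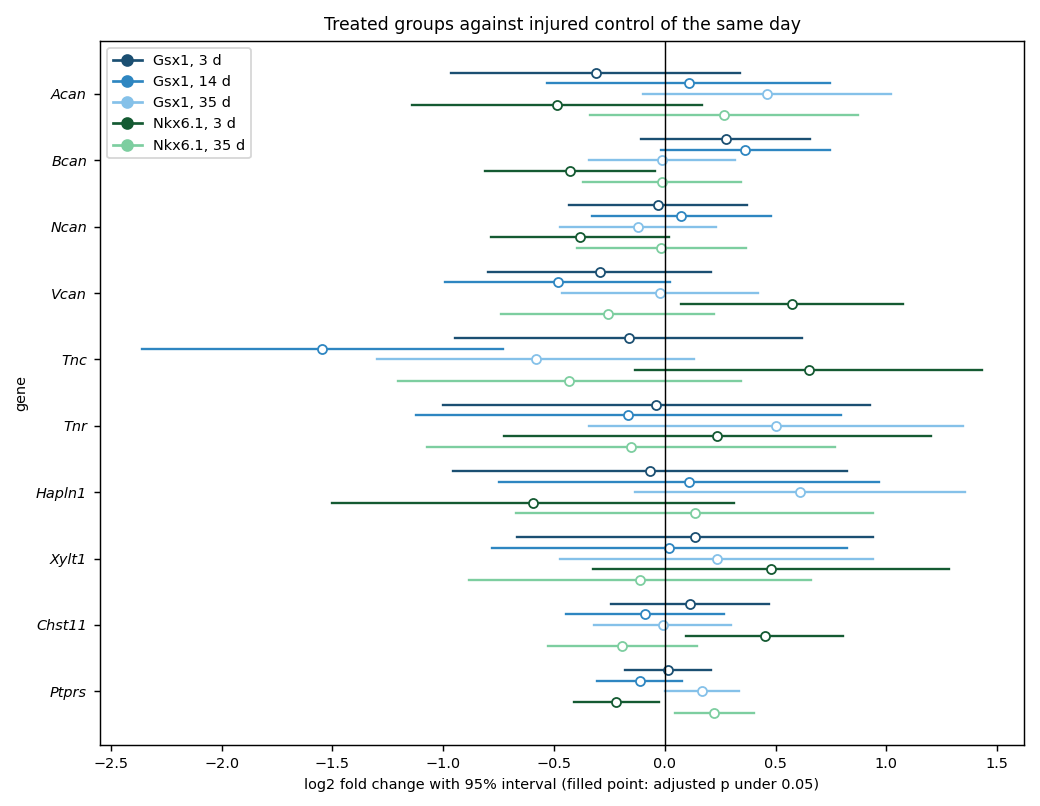
Log2 fold change (x axis) of each gene (y axis) in Gsx1 and Nkx6.1 cords against injured controls of the same day, with 95% intervals as bars. No point is filled, since no adjusted p was under 0.05, and the point farthest from 0 is Tnc for Gsx1 at 14 days, at -1.55.

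The course over time was read in the injured controls. From 3 to 35 days 4 of the 10 genes changed: Ncan, Tnc and Vcan fell and Bcan rose. Of all genes 11% were called, 5.05% higher and 5.97% lower. With only the libraries low in Xist 2 of the 10 were called, Ncan and Tnc. The share of all genes called in that fit is not given, so the lost calls do not set Vcan and Bcan apart. Ncan went from 225 to 255 CPM at 3 days through 162, 139.9 and 105 CPM at 14 days to 52.0 to 94.9 CPM at 35 days, a fall of 1.57 on the log2 scale (SE 0.18, adjusted p = 8.33e-06). Its libraries did not overlap between any of the 3 days. Tnc fell by 2.25 (SE 0.37, adjusted p = 2.57e-04), Vcan fell by 1.23 (SE 0.23, adjusted p = 0.00105), and Bcan rose by 0.86 (SE 0.18, adjusted p = 0.00252).

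The 3 to 14 day step had 3.06% of genes called, Ncan among them (-0.82, adjusted p = 0.0211). Without injured control replicate 1 at 3 days, or replicate 2 or 3 at 14 days, Ncan was -0.76, -0.84 and -0.66 and was not called, nor was it with only the libraries low in Xist (-0.77, adjusted p = 0.0738, range over alternatives 0.00327 to 0.140). Over that step Bcan differed by 0.58 (adjusted p = 0.0857) and Hapln1 by 0.94 (adjusted p = 0.224), each without overlap. The 14 to 35 day step had 1.32% of genes called, Ncan (-0.76) and Tnc (-1.55) among them, each with an adjusted p of 0.0429. With the replicate number as a block these were -0.72 and -1.66, and neither was called (adjusted p 0.0954 and 0.0850), nor were they without a low-count filter, with the Xist class as a covariate, with only the libraries low in Xist, with only the compared groups or without the 3 libraries (adjusted p 0.0507 to 0.621). Neither was called without injured control replicate 1 or 2 at 14 days or replicate 1 at 35 days, and without replicate 4 at 35 days Ncan was -0.60 and not called, while without replicate 2 or 3 at 35 days 5 and 4 of the 10 were called, among 2461 and 871 of 16314 genes. Vcan went from 73.1 to 88.9 CPM at 14 days to 43.9 to 51.8 CPM at 35 days without overlap, a log2 difference of -0.78 that edgeR did not call (adjusted p = 0.0644, range over alternatives 0.0133 to 0.682). It was called without injured control replicate 2 or 3 at 35 days (adjusted p 0.0387 and 0.0458).

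Sham cords at 35 against 3 days had 0.00613% of genes called, 1 gene, and 0 of the 10 by edgeR or DESeq2 or at an unadjusted p under 0.05. Tnc differed by -0.90 (interval -1.82 to 0.02) and Tnr by -0.49 (interval -1.47 to 0.48), each without overlap of the groups. The test of whether the injury difference itself changed between 3 and 35 days called 0.362% of genes, and Ncan was the 1 gene of the 10 among them. Its difference from sham was lower at 35 days by 1.41 on the log2 scale, an interaction of -1.41 ± 0.27 (adjusted p = 0.0209). Without sham replicate 3 or injured control replicate 1 at 3 days, or sham replicate 1 or 3 at 35 days, this was -1.41 to -1.35 with an adjusted p of 0.0517 to 0.0589. It was -1.30 without the libraries of both sex marks (adjusted p = 0.0549) and -1.35 with only the libraries low in Xist (0.485), within a range over alternatives of 4.19e-04 to 0.485. Tnc (-1.35 ± 0.58), Vcan (-1.16 ± 0.34) and Bcan (0.75 ± 0.26) were not called in edgeR for this interaction, and DESeq2 called Vcan (adjusted p = 0.0478, range over alternatives 0.00528 to 0.822).

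Within groups, the deviation of a library's log2 CPM from its group mean was compared between the 10 genes over 32 libraries, as 45 pairs with permutation p-values that shuffled libraries within groups. Of these pairs 7 had an adjusted p under 0.05 for Pearson's r. Pairs of other genes were not run, so the count has no background and is not read as particular to these genes. Tnr and Xylt1 moved together most closely (Pearson r = 0.94, Spearman rho = 0.82, permutation adjusted p = 0.0027 and 0.00555), and r was 0.88 without the 2 libraries farthest from the median of Tnr. Vcan with Chst11 (r = 0.79, rho = 0.74, permutation adjusted p = 0.0099 and 0.00555), Vcan with Tnc (r = 0.74, rho = 0.72, permutation adjusted p = 0.0226 and 0.00911) and Acan with Hapln1 (r = 0.79, rho = 0.70, permutation adjusted p = 0.0459 and 0.0349) also moved together. Bcan ran against Tnc (r = -0.78, rho = -0.71, permutation adjusted p = 0.00337 and 0.00555). Without the 2 libraries farthest from the median of the first gene, r was 0.66, 0.59, 0.69 and -0.71 for these 4 pairs. The other pairs were Tnc with Chst11 (r = 0.66, rho = 0.59, permutation adjusted p = 0.0481 and 0.0416) and Bcan with Vcan (r = -0.65, rho = -0.62, permutation adjusted p = 0.0489 and 0.0159), with r of 0.50 and -0.51 without such libraries.

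The level of long against short genes also varied between libraries. Tnr read 24.6, 65.1, 58.0 and 9.89 CPM in injured control replicates 1 to 4 at 35 days, and Xylt1 read 9.95, 18.2, 14.3 and 3.12 CPM. In Gsx1 cords of that day Tnr read 69.3, 66.7, 18.7 and 68.9 CPM, and Xylt1 read 15.5, 15.4, 6.06 and 16.8 CPM. Across genes, the correlation of a library's deviation with log2 exonic length was -0.25, 0.28, 0.27 and -0.18 in the 4 injured controls and -0.29 in Gsx1 replicate 3. Other libraries low in Tnr had values nearer 0. Nkx6.1 replicate 3 at 3 days, with deviations of -0.74 for Tnr and -0.70 for Xylt1, was at -0.0088. Gsx1 replicate 2 at 3 days, with -0.70 and -0.39, was at -0.119, and Nkx6.1 replicate 1 at 35 days, with -0.57 and -0.34, was at -0.067. Genes are not independent replicates, and the exonic lengths of Tnr and Xylt1 are 12.87 and 9.65 kb. The part of length in this pattern was not tested. With the length correlation as a covariate, added after seeing the data, all 35 called values of the 10 genes kept their calls. That covariate comes from deviations within groups, so it could hardly take up a length difference between groups.

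**Figure D4:**
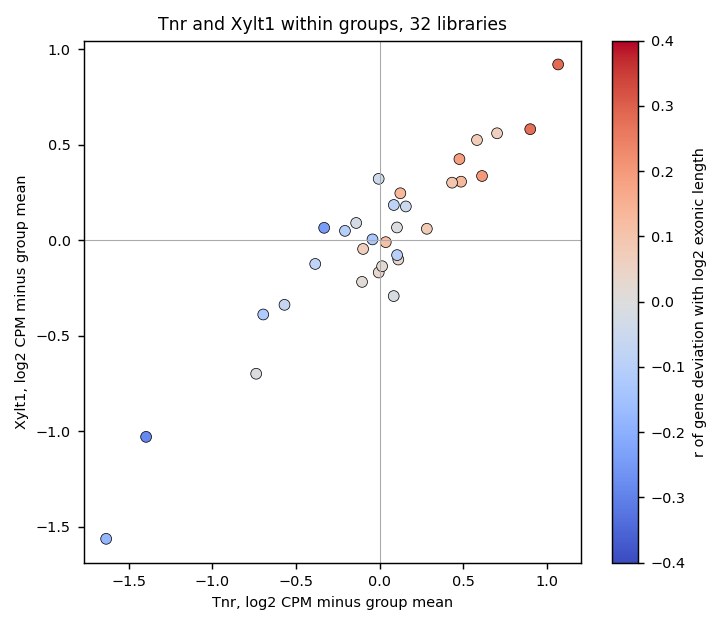
Deviation of Xylt1 (y axis) against that of Tnr (x axis), each as log2 CPM minus the group mean, for 32 libraries (points). Colour gives the correlation, across genes, of the library's deviations with log2 exonic length, and the lowest points, injured control replicate 4 and Gsx1 replicate 3 at 35 days, have values of -0.18 and -0.29.

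By mean log2 CPM over the 10 groups, the 3 genes most like each member were found among 13875 candidates, as a description. Hapln1 was closest to Ano3, Cdh8 and Zfyve28 (r = 0.99 for each), and Acan to Ranbp6, Rhot1 and Abca5 (0.99 for each). Tnc was closest to Clec4a1, Steap3 and Prrc1 (0.99 for each), and Vcan to Mark3 (0.99), Pdgfra (0.98) and Clca1 (0.98). Pdgfra is a marker of oligodendrocyte precursors, and its group means were 62.5 CPM in sham and 106 CPM in injured control cords at 3 days. Ncan was closest to Riok3 (0.97), Neu4 (0.97) and Kcnq1 (0.96), Bcan to Lrrc73 (0.99), Lgi1 (0.99) and Ube2b (0.98), and Ptprs to Kalrn (0.99), Adarb2 (0.99) and Tyw3 (0.98). Chst11 was closest to Nkiras2, Rab8b and Gla (0.99 for each). Tnr was closest to Pcdhgb2 (0.98), Pcdhga5 (0.97) and Pcnx (0.96), and Xylt1 to Tnpo1 (0.98), Fzd4 (0.96) and Pcdhga5 (0.96). The 10 points share groups and library composition, and with so many candidates a high r is no finding.

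Other genes of the same matrix were read from lists in injured control against sham, and the values below are log2 fold changes. Of all genes tested, 35.5% were called at 3 days and 36.8% at 35 days, and the list counts are read against those shares. List counts in other fits, here and below, are not set against the share of all genes in the same fit. A lower count there does not set a list apart from other genes. Of 12 other core, link, hyaluronan and tenascin genes, 3 rose and 2 fell at 3 days (median log2 fold change 0.57, against 0.01 over all genes). Cd44, a hyaluronan receptor, rose by 2.94, Has2, a hyaluronan synthase, by 2.33 and Cspg4, the NG2 proteoglycan, by 1.07, while Hapln4, a link protein of perineuronal nets, fell by 1.34 and Has3 fell by 1.09. At 35 days 4 rose and 2 fell (median -0.22 against 0.04): Tnxb, a tenascin of connective tissue, by 2.60, Cd44 by 2.31, Has2 by 1.64 and Cspg4 by 0.90, with Hapln4 and Cspg5 lower, at -0.96 and -0.32. Without injured control replicate 4 that count of 6 was 3.

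Of 11 tested genes that build the chain, 2 rose and 1 fell at 3 days (median -0.10): Csgalnact2 by 0.53 and Chsy1 by 0.65 rose, and Fam20b, the xylose kinase, fell by 0.41. At 35 days 2 rose and 3 fell (median -0.23): Chsy1 and Csgalnact2 were at 0.72 and 0.40, and Chsy3, Fam20b and Chpf2 at -0.97, -0.38 and -0.37. The 3-day count was 1 without injured control replicate 1. The 35-day count of 5 was 3, 3 and 2 without sham replicate 1, 2 or 3, and 1 without injured control replicate 4. Of 12 tested sulfation genes, 5 rose and 1 fell at 3 days (median 0.36): Dse, an epimerase, by 1.39, Chst14 by 1.20, Papss2, which makes the sulfate donor, by 1.08, Chst7 by 0.92 and Slc35b2 by 0.80, with Chst15 lower, at -0.64. At 35 days Dse (2.03), Chst14 (1.36) and Papss2 (0.76) rose and Papss1 fell (-0.23, median 0.18).

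All 9 tested genes of chain and hyaluronan breakdown were called at 3 days, 8 higher and 1 lower (median 1.14). The lysosomal enzyme genes Gusb (2.54), Hexa (1.80) and Galns (1.61) were among those that rose, and Ids fell by 0.52. At 35 days 6 rose, with Hexa at 2.20 and Gusb at 2.12 among them, and Ids fell by 0.59 (median 0.65). The macrophage and microglia marker sum given above was higher in the same groups, and its part was not tested. Of 7 proteases that cleave lecticans, Adamts1 (1.34), Adamts9 (1.09) and Adamts5 (0.72) rose at 3 days and none fell (median 0.68). At 35 days 5 rose, namely Adamts8 (1.32), Adamts1 (1.00), Adamts9 (0.85), Adamts5 (0.76) and Adamts20 (0.68), and none fell (median 0.76). That count was 2 without sham replicate 3.

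Of 11 receptors and partners of chondroitin sulfate, 3 rose and 2 fell at 3 days (median 0.30): Ngfr by 2.08, Sdc4 by 1.22 and Tnfrsf19 by 0.30 rose, and Lingo1 and Ptprd, a relative of Ptprs, were at -0.91 and -0.56. That count of 5 was 3 without sham replicate 1 or injured control replicate 1. At 35 days Sdc4 (1.03) and Egfr (0.59) rose and Lingo1 fell (-0.86, median 0.28). Of 10 tested tenascin receptors, Tlr4 (3.38), Anxa2 (1.86), Itgb1 (1.11), Itgav (0.97) and Itga7 (0.70) rose at 3 days and none fell (median 0.72). At 35 days Tlr4 (2.94), Anxa2 (1.55), Itgb1 (0.66) and Itga7 (0.54) rose and none fell (median 0.48), and that count of 4 was 2 without sham replicate 3. Of 7 reported regulators, Runx1 (2.97), Tgfb1 (2.23), Sox9 (0.89), Stat3 (0.86) and Smad3 (0.42) rose at 3 days (median 0.86). All 7 rose at 35 days (median 0.91), including Tgfb2 (0.68) and Tgfb3 (0.91), with Runx1 at 3.98, Tgfb1 at 2.86 and Sox9 at 1.24. With only the libraries low in Xist, the counts called at 3 days were 1 of the other core and link genes, 0 of chain synthesis, 2 of sulfation, 5 of breakdown, 0 of the proteases, 1 of the chondroitin sulfate receptors, 4 of the tenascin receptors and 4 of the regulators. At 35 days they were 2 of the other core and link genes, 1 of chain synthesis, 2 of sulfation, 5 of breakdown, 1 of the proteases, 0 of the chondroitin sulfate receptors, 1 of the tenascin receptors and 4 of the regulators.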

How the data were processed

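Bulk RNA-seq counts of 32 spinal cord libraries in 10 groups were analysed. The values the authors deposited are whole-number counts of reads for each gene, not normalized. Per the submitters' processing notes, HISAT2, SAMtools, HTSeq and DESeq2 and the builds mm10 and GRCm38 were named, without versions or roles. The annotation and the strand setting are not stated there, so reads shared by overlapping genes may be split or lost.

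Counts were tested with edgeR 4.0.16 (quasi-likelihood F test, TMM scaling, R 4.3.3, limma 3.58.1) in 1 model of 10 groups with 22 residual degrees of freedom. Genes passed filterByExpr with a minimum count of 10 and a minimum total of 15, which kept 16314 of 23420 genes, of which 2504 had no read. P-values were adjusted by Benjamini-Hochberg over all genes tested, and a gene was called at an adjusted p under 0.05. The common biological coefficient of variation was 20.8%. Intervals are 95% intervals from the same fit. On simulated counts for injured control against sham at 3 days, the test recovered 68 of 100 genes changed by 1 on the log2 scale and 100 of 100 changed by 2, among 15982 genes tested. Of 174 calls 6 were false. The simulation gave all genes the same variation and changed only well-counted genes, fewer than were called in the data. It therefore does not give the power for single genes here.

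CPM used TMM library sizes, and log2 CPM a prior count of 2. Lengths are merged exons of GENCODE vM21. The members, the lists and the tests were chosen with earlier results of these data known. Named genes are all 10 members, for each list the 2 smallest p-values at 3 and at 35 days and all called genes where 5 or fewer were called, and for each member the 3 nearest genes by Pearson's r over group means, among genes with a mean of at least 1 CPM and no predicted name. Other called list genes were chosen after their values were seen. Markers of oligodendrocyte precursors, oligodendrocytes, Schwann cells, muscle, endothelium, ependyma, and cartilage and bone were also read. Alternatives were DESeq2 1.42.0, RLE scaling, no filter, the replicate number as a block, Xist class as a covariate, libraries low in Xist, no libraries with both sex marks, only the compared groups and each replicate left out. A fit without 3 libraries at 35 days and a length covariate were added after seeing the data. Same-numbered replicates were checked for pairing by the correlation of their deviations from the group means, and every pair exceeded 0.1 in Gsx1 against sham at 3 days alone. No library was left out of the values reported first. Some genes that this rule would name, and 1 marker list, are not reported here.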

Additional observations from a re-analysis of the deposited data

Results flagged for a closer look

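Tnr was 18.7 CPM in Gsx1 replicate 3 at 35 days, far below the other 3 Gsx1 libraries (66.7 to 69.3 CPM), and the gap was 0.948 of the group's range. Xylt1 was 6.06 CPM in the same library, against 15.4 to 16.8 CPM in the others, with a gap of 0.864 of the range. Both exceed Dixon's 95% critical value for 4 libraries. Of 20 groups of 4 libraries tested, 2 were so marked, and chance marks about 1 in 20. The correlation of that library's deviations with log2 exonic length was -0.29, and its part was not tested.

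The difference between injured control and sham cords for Ncan was smaller at 35 than at 3 days, with an interaction of -1.41 on the log2 scale (edgeR's quasi-likelihood test, adjusted p = 0.0209). Every injured control was above every sham library at 3 days, and the groups overlapped at 35 days.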

How the results depend on the processing

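Over 35 called values of single genes, DESeq2 and the length covariate kept every call. RLE scaling kept 34, no filter 32, the Xist covariate 33 and only the compared groups 30. The length covariate comes from deviations within groups, so its kept calls say little about length differences between groups. Without the libraries of both sex marks 25 of 32 kept their call, and without the 3 libraries at 35 days 7 of 11 did. With only the libraries low in Xist, 18 of 35 did, and this leaves 1 sham library at 3 days, which is assumed to vary like the other groups.

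Counts of the 10 genes called moved as follows. The number of all genes called also moved between fits, and its share is not set beside the counts here or in the next paragraph. A lower or higher count therefore does not set these genes apart from others. With only libraries low in Xist, the injured control against sham count went from 7 to 3 at 3 days and from 3 to 1 at 35 days, Gsx1 against sham from 7 to 4 and from 1 to 0, Nkx6.1 against sham at 35 days from 1 to 0, and injured control from 1 to 0 (14 against 3 days), 2 to 0 (35 against 14) and 4 to 2 (35 against 3). The injury by time count went from 1 to 0 in that fit and without the libraries of both sex marks. At 35 days injured control against sham was 1 in 4 fits: libraries low in Xist, no libraries of both sex marks, only the compared groups, and without 3 libraries. With only the compared groups, Gsx1 and Nkx6.1 against sham at 35 days were 2 and 3, injured control 14 against 3 days was 4, sham 35 against 3 days was 2 and the injury by time count was 2. DESeq2 gave 1 for Gsx1 against injured control at 14 days, 1 for Gsx1 against Nkx6.1 at 3 days, 2 for injured control 14 against 3 days, 4 for 35 against 14 days, 2 for injury by time and 1 for Nkx6.1 by time. The length covariate gave 6 for injured control 35 against 14 days and 1 for Nkx6.1 by time. Injured control 35 against 14 days was 0 without a filter, with the Xist covariate, without the libraries of both sex marks, with only the compared groups and without 3 libraries. The cause was not tested.

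Leaving out 1 replicate gave counts of 1 to 4 (injured control against sham, 35 days), 5 to 7 (Gsx1 against sham, 3 days), 0 to 1 (Gsx1 and Nkx6.1 against sham, 35 days), 0 to 5 (Nkx6.1 against injured control and Gsx1 against Nkx6.1, 3 days), 0 to 1 (injured control 14 against 3 days), 0 to 5 (35 against 14 days), 0 to 1 (injury by time) and 0 to 6 (Nkx6.1 by time).

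Some uncalled values changed sign. In injured control against sham, Tnr was 0.27 at 3 days with libraries low in Xist and -0.16 to 0.16 with 1 replicate left out. At 35 days it was 0.47 with libraries low in Xist and 0.12 without those of both sex marks. It was 0.46 without the 3 libraries, a direction that leaving out injured controls low in Tnr fixes. With 1 replicate left out it was -0.56 to 0.12. Xylt1 at 35 days was -0.17 with the length covariate and -0.29 to 0.35 with 1 replicate left out. In Gsx1 against injured control at 35 days, Acan went from 0.46 to -0.040, Hapln1 from 0.61 to -0.051 and Tnr from 0.50 to -0.15 with libraries low in Xist.

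With the replicate number as a block, 33 of 35 called values kept their call, and the count for injured control 35 against 14 days went from 2 to 0. In 1 of 17 comparisons every same-numbered pair of libraries correlated above 0.1 (range -0.47 to 0.40). That was Gsx1 against sham at 3 days, with 0.28, 0.22 and 0.14, where the block left the count at 7. In the other 16 comparisons not every pair exceeded 0.1. That cannot show whether same-numbered libraries share more than a number, and the labels do not say what the numbers mean.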

Other observations

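Summed marker levels of other cell types are given as values for sham and injured control cords at 3 days. The 8 markers of oligodendrocyte precursors summed to 521 to 549 CPM in sham and 674 to 748 CPM in injured controls, and the 6 endothelial markers to 263 to 286 CPM and 435 to 525 CPM. The ranges overlapped for 7 oligodendrocyte markers (25719 to 30642 and 19424 to 36006 CPM), 6 Schwann cell markers (282 to 503 and 190.4 to 1091 CPM), 5 ependymal markers (43.5 to 58.7 and 52.2 to 59.2 CPM) and 7 markers of cartilage and bone, where Acan and Hapln1 are also known to be expressed (100.5 to 111 and 74.2 to 139 CPM). The 7 skeletal muscle markers summed to 2.67 to 3.89 CPM in sham and 2.62 to 299 CPM in injured controls, highest in replicate 3, and reached 534 CPM in Nkx6.1 replicate 2 at 3 days.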
